A study of Mus musculus with 6 samples.

Results

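The genes described here supply cells with amino acids or answer to their shortage. They were chosen by symbol from a list of 31 members, and all 31 had a row among the 21017 genes of the deposited count table. By role they were 9 amino acid transporters, 8 enzymes of serine and one-carbon metabolism, 9 other amino acid enzymes, and the transcription factor ATF4 with 4 of its stress-response targets. The libraries were of RNA from ILC2s (group 2 innate lymphoid cells), lung-resident lymphocytes that make type 2 cytokines, taken from 8-week-old IL-10GFP reporter mice on the C57BL/6J background. All of the mice had received 3 intranasal doses of rm-IL-33 (0.5 µg each), and all of the cells had then been cultured for 48 h with rm-IL-2, rm-IL-7 and rm-IL-4 at 10 ng/mL each. The cells were re-sorted into those producing IL-10 (3 libraries) and those negative for it (3 libraries). Both groups thus carried the reporter and met the same alarmin and culture cytokines, and no unstimulated or wild-type group was analysed here. Although the labels call the cells freshly sorted, the treatment text places this culture before the second sort. Whether each library was made from its own mouse or culture is not stated, so the p-values reflect only how the libraries vary, which may be technical.

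Cells take up large neutral amino acids through a light chain such as Slc7a5 joined to the heavy chain Slc3a2, and glutamine and small neutral amino acids through other carriers. Serine can also be made from a glycolytic intermediate by Phgdh, Psat1 and Psph, and it feeds one-carbon units into folate through Shmt and Mthfd enzymes in the cytosol and in mitochondria. When uncharged transfer RNA or another stress activates an eIF2alpha kinase, translation as a whole falls while Atf4 messenger RNA is translated more, and ATF4 then raises transcription of transporters, biosynthetic enzymes and stress genes such as Ddit3, Trib3 and Chac1. ATF4 is therefore controlled in large part at translation, which messenger RNA levels do not show.

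ATF4 binds together with C/EBP family factors at a composite element whose core is TGATGNAA, read here on both strands, so that TTNCATCA is the same core on the other strand. Promoter windows of 300 bases, 250 before and 50 after each start, were available from RefSeq (GRCm38.p6) for 28 of the 31 members, of which 4 had at least 2 windows. The core was present in 7 of these 28 genes (25.0%), against 4.51% of 27025 gene symbols with a window and 2.74% of the 9692 tested genes with a window. Members were listed in part for their link to ATF4, so a higher share than among all genes could follow from that choice.  A match is a description of letters in a window and not a measured binding site, and no other motif was searched. The windows of Chac1, Trib3, Slc1a4 and Asns are shown whole, 5′ to 3′ on the gene's strand and with the core in capitals. These genes hold the same core, but Chac1, Trib3 and Slc1a4 fell in the comparison below while Asns did not pass.
Chac1 (chr2:119350992-119351291, plus strand): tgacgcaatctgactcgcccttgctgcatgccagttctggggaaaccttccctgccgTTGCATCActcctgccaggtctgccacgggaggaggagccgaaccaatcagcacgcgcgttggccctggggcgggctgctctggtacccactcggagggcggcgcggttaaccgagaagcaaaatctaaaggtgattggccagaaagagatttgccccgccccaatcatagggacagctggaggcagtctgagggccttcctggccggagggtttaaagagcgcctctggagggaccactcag
Trib3 (chr2:152344011-152344310, minus strand): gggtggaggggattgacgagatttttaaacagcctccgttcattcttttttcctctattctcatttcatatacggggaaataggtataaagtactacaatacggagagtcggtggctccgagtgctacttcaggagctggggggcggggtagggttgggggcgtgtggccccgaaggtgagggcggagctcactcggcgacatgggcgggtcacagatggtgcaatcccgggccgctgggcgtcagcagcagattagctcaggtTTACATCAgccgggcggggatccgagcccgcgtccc
Slc1a4 (chr11:20332664-20332963, minus strand): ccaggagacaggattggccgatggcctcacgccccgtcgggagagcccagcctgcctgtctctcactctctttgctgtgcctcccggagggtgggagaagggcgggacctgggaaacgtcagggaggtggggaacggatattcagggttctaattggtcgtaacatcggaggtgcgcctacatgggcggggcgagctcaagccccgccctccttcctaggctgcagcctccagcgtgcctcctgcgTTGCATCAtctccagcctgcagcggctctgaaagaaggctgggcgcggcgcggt
Asns (chr6:7693160-7693459, minus strand): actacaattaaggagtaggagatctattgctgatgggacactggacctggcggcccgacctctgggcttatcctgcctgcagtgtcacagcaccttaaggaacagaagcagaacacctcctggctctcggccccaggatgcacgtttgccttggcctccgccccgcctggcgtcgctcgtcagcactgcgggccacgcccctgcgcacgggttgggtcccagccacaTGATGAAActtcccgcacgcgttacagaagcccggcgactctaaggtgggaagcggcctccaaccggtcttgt

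Counted from the start of the RefSeq window, the core began 193 bases before the start of Chac1, 4 before that of Slc1a4 and 23 before that of Asns. In Trib3 it began 15 bases after the start. The gene coordinates given below place some starts elsewhere, and for Asns and Trib3 the core lies on the other side of those starts. For the other members with a match, Slc7a11, Pycr1 and Got1, the stretch around the core is shown. Slc7a11 holds 2 cores in opposite orientation, which began 66 and 47 bases before the start.
Slc7a11 (chr3:50443627-50443705, minus strand): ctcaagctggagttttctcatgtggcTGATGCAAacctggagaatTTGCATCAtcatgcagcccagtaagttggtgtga
Pycr1 (chr11:120643818-120643877, minus strand): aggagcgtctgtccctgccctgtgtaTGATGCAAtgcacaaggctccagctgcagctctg
Got1 (chr19:43524674-43524733, minus strand): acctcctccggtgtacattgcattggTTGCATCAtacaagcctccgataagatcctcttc

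Library totals ran from 47012941 to 69511433 estimated counts. Values are CPM, a gene's count relative to its library's total after scaling with TMM factors, and a positive log2 fold change means a higher level in IL-10-producing libraries. A gene passed when the adjusted p (Benjamini-Hochberg over 16654 tested genes, edgeR quasi-likelihood F test) was under 0.05; every adjusted p below comes from this test unless another setting is named. Il10, on whose reporter the cells were sorted, stood at 848 ± 7.78 against 13.5 ± 0.608 CPM (SD, n = 3), which checks the labels. The ILC2 genes Gata3 and Il1rl1 stood at 708 and 3299 CPM in IL-10-producing and at 832 and 4069 CPM in IL-10-negative libraries. Of 16 ILC2 markers 8 fell, 5 rose and 3 did not pass. Their summed level ranged from 17260 to 17400 in IL-10-producing against 16510 to 16660 CPM in IL-10-negative libraries. Several marker lists of other cells differed between the groups. Of 15 T-cell markers 14 fell and Lef1 rose, and their summed level ranged from 133 to 137 against 223 to 229 CPM. The falls were of unlike size, from Cd8a (0.0594 against 15.3 CPM) to Trbc1 (18.8 against 21.2 CPM), which the sum does not show. Of 14 mast cell, basophil and neutrophil markers all 12 that were tested fell, with sums of 13.2 to 15.7 against 99.5 to 106 CPM. Of the tested markers, 5 of 7 for B cells, 3 of 4 for NK cells and ILC1, 4 of 9 for macrophages and dendritic cells and 1 of 3 for lung structural cells fell, and 1 in each of these 4 lists rose. Their sums were higher in IL-10-producing libraries for B cells (43.4 against 38.6 CPM) and lung structural cells (121.2 against 106.5 CPM). They were lower for NK cells and ILC1 (6.41 against 11.8 CPM) and for macrophages and dendritic cells (63.7 against 68.5 CPM). The deposited counts hold no gene with a total under 10 over the 6 libraries, so no marker with a row could be 0 throughout. For NK cells and ILC1, 6 of 7 listed markers had a row. For macrophages and dendritic cells 9 of 11 had one, and for lung structural cells 6 of 9. In such bulk RNA, fewer cells of a type and less RNA per cell cannot be told apart, and the part of these markers in the results below was not tested.

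Members went both ways, by role. Of 31 members tested, 11 were higher in IL-10-producing libraries (17.1% of all tested genes were) and 10 were lower (18.6% of all tested genes). Of 10400 genes at 5 CPM or more, a level that 30 members reached, 24.2% were higher and 22.8% lower. With library size as the only scaling, 36.8% of all genes called were higher, against 47.8% with TMM, and the members split into 10 higher and 12 lower. The median log2 fold change was 0.02 over the members and -0.00 over all tested genes. No member was higher by 1.5-fold or more (1.72% of all tested genes were) and 4 were lower by as much (4.96% of all tested genes): Trib3, Ddit3, Slc1a4 and Chac1. The 2 groups of libraries did not overlap, as higher in IL-10-producing, for 13 members (21.7% of all tested genes), and did not overlap as lower for 10 (23.5%). The ATF4 and C/EBP core was present in 3 of the 9 lower members with a promoter window, in 0 of the 10 higher ones and in 4 of the 9 that did not pass; among all tested genes the shares were 3.45%, 2.37% and 2.60%. The plot of log2 fold changes by role shows 6 of 8 serine and one-carbon enzymes called higher, with Shmt2 slightly on the lower side. All 5 genes of the ATF4 and stress-response group lie on the lower side.

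**Figure D1:**
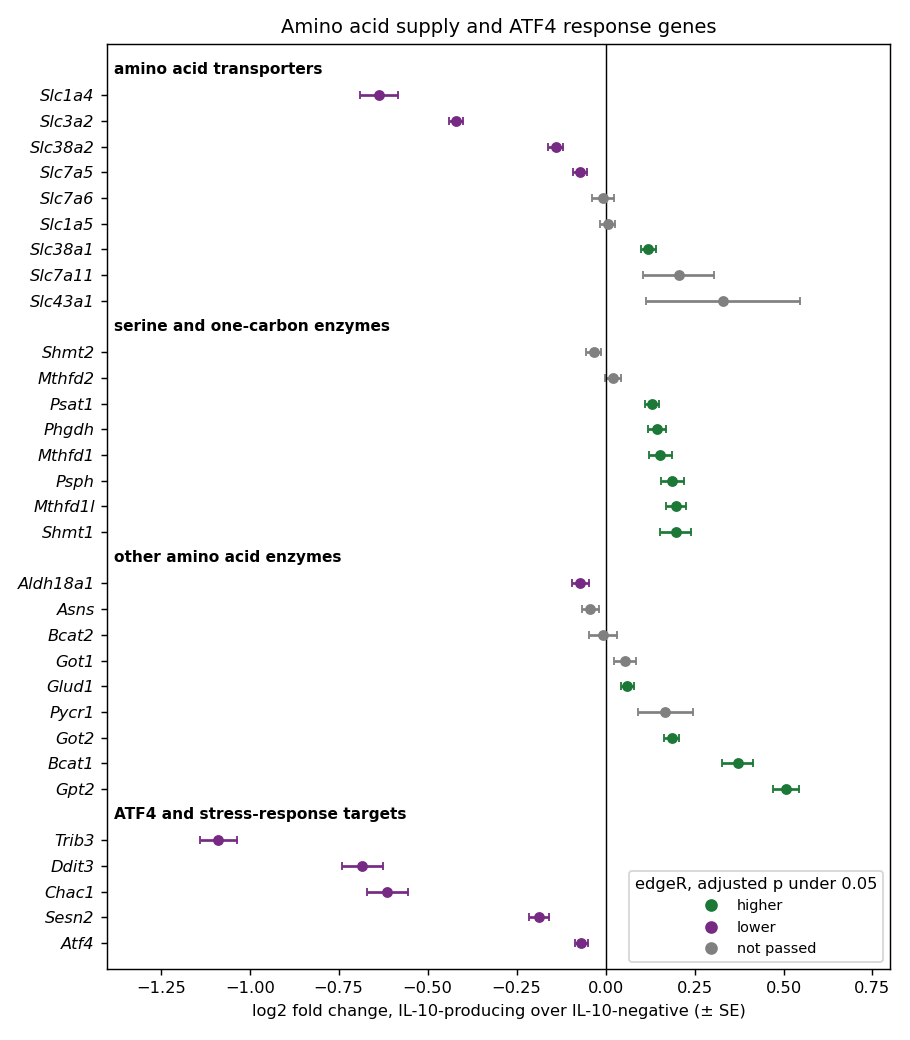
Log2 fold change of each of the 31 members, IL-10-producing over IL-10-negative, with its standard error, grouped by role and coloured by the edgeR result. All 5 genes of the ATF4 group lie below 0, and 6 of 8 serine and one-carbon enzymes are called higher.

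ATF4 and the stress-response targets listed with it were all lower in IL-10-producing libraries. Of these 5 genes 5 fell (18.6% of all tested genes did), with a median log2 fold change of -0.61. Atf4 itself (chromosome 15, 80255184 to 80257541) stood at 460.0, 463 and 456 CPM in the 3 IL-10-producing libraries and at 484, 476 and 486 CPM in the 3 IL-10-negative ones. The groups did not overlap, but the difference was small (log2 fold change -0.07, SE 0.018, adjusted p = 0.0043). Trib3, a pseudokinase that restrains AKT signalling and ATF4 itself (chromosome 2, 152337422 to 152344032), stood at 15.3, 17.1 and 14.9 CPM against 34.3, 34.1 and 32.7 CPM. It was 2.14-fold lower, the largest difference of any member (log2 fold change -1.09, SE 0.053, adjusted p = 1.63e-14). Every IL-10-negative library was far above every IL-10-producing one.

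Ddit3 encodes CHOP, a factor of prolonged endoplasmic reticulum stress (chromosome 10, 127290774 to 127296288). It stood at 12.1, 12.7 and 12.3 CPM against 19.3, 20.3 and 20.01 CPM, with no overlap (log2 fold change -0.68, SE 0.057, adjusted p = 4.28e-10). The strand setting of the counting is unknown here, and 3.97% of the exon bases of Ddit3 are shared with exons of Mars on the other strand. Mars, the methionyl-tRNA synthetase, stood at 133 against 136 CPM and did not pass (adjusted p = 0.414). Another annotated model with the symbol Ddit3 covers 6.13% of its exon bases on the same strand.

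Chac1, an enzyme that breaks down glutathione (chromosome 2, 119351229 to 119354381), stood at 16.2, 14.6 and 14.3 CPM against 21.9, 23.6 and 23.5 CPM. It was 1.53-fold lower, and the groups were well apart (log2 fold change -0.61, SE 0.058, adjusted p = 3.68e-09). Sesn2, a leucine-binding brake on the growth kinase complex mTORC1 (chromosome 4, 132492032 to 132510501), stood at 91.4, 90.4 and 93.1 CPM against 109, 101 and 104 CPM. Its fall was smaller and also without overlap (log2 fold change -0.19, SE 0.029, adjusted p = 1.12e-05). All 5 genes kept this call in each of the 17 alternatives. The summed T-cell markers (135 against 226 CPM) and those of mast cells, basophils and neutrophils (14.8 against 104 CPM) moved the same way, and their part in these falls was not tested.

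**Figure D2:**
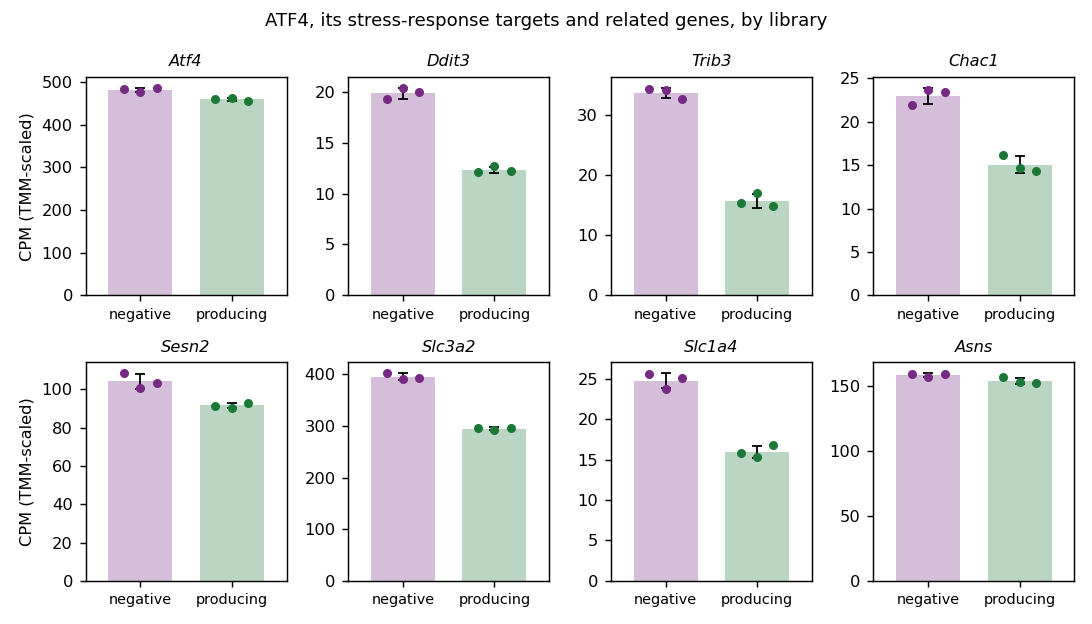
CPM of Atf4, its 4 stress-response targets and 3 related genes in IL-10-negative and IL-10-producing libraries; points are libraries, bars are means and error bars are SD (n = 3). Trib3, Ddit3, Chac1 and Slc1a4 are clearly lower in IL-10-producing libraries, while the means of Asns are 154 and 159 CPM.

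Of some biosynthetic genes known as ATF4 targets, Asns and Mthfd2 did not pass, and Phgdh, Psat1 and Psph, described below, rose. Other enzymes, among them Gpt2 and Bcat1, which rose more, and Aldh18a1, which fell, are also described below. Asns, which makes asparagine (chromosome 6, 7675169 to 7693254), stood at 157, 153 and 152 CPM against 160, 157 and 160 CPM. The groups overlapped and the gene did not pass (log2 fold change -0.04, SE 0.023, adjusted p = 0.161), although it passed as lower with library size as the only scaling (adjusted p = 0.0135). The ratio of Trib3 to Asns counts within a library, which needs no scaling, was 0.0977, 0.112 and 0.098 in IL-10-producing and 0.215, 0.218 and 0.205 in IL-10-negative libraries. The ratio of Ddit3 to Atf4 counts was 0.0263, 0.0274 and 0.0269 against 0.0398, 0.0427 and 0.0412. Both ratios were lower in all 3 IL-10-producing libraries, by 1.05 and 0.62 on the log2 scale. Each of the 7 gene ratios compared here gave a two-sided exact permutation p of 0.1 (0.1 after Benjamini-Hochberg adjustment over the 7), the smallest that 3 against 3 libraries allow; the pairs were chosen after their values were seen.

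Among the transporters Slc1a4, Slc3a2, Slc38a2 and Slc7a5 fell and Slc38a1 rose. Of 9 members, 4 fell (18.6% of all tested genes did), 1 rose (17.1% did) and 4 did not pass. The median log2 fold change was -0.01. Slc3a2, the heavy chain that brings several light chains to the membrane (chromosome 19, 8706882 to 8723369), stood at 296, 292 and 296 CPM against 403, 389.9 and 392 CPM. It was 1.34-fold lower with no overlap (log2 fold change -0.42, SE 0.020, adjusted p = 8.0e-15). Its main light chain Slc7a5, the leucine carrier LAT1 (chromosome 8, 121881150 to 121907694), stood at 373, 381 and 366 CPM against 387, 390.4 and 400.3 CPM.

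The fall of Slc7a5 was of 0.07 on the log2 scale (SE 0.021, adjusted p = 0.0070) and was not past the threshold without IL-10-negative replicate 3 (adjusted p = 0.0648) or once GC content and length were corrected for (adjusted p = 0.158). The ratio of Slc3a2 to Slc7a5 counts was 0.794, 0.765 and 0.811 in IL-10-producing against 1.04, 0.999 and 0.979 in IL-10-negative libraries, so heavy-chain RNA was lower relative to this light chain in all 3. Slc7a6, another light chain, did not pass at 65.4 ± 0.402 against 65.7 ± 1.78 CPM.

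Slc1a4, a carrier of serine, alanine and other small neutral amino acids (chromosome 11, 20302180 to 20332713), stood at 15.8, 15.4 and 16.8 CPM against 25.6, 23.8 and 25.1 CPM. It was 1.55-fold lower with no overlap (log2 fold change -0.64, SE 0.054, adjusted p = 5.52e-10). Its relative Slc1a5, the glutamine carrier ASCT2 (chromosome 7, 16781340 to 16798274), stood at 302, 305 and 297 CPM against 298, 299 and 304 CPM. Those libraries overlapped fully, and the log2 fold change was 0.01 with an SE of 0.020 (adjusted p = 0.867).

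The glutamine carriers of the Slc38 family moved apart. Slc38a1 rose from 423 ± 5.87 to 460 ± 9.99 CPM (log2 fold change 0.12, adjusted p = 2.62e-05), and Slc38a2, which is induced by amino acid shortage, fell from 266 ± 5.07 to 242 ± 3.48 CPM (log2 fold change -0.14, adjusted p = 7.6e-06). Slc7a11, the cystine carrier and another ATF4 target (chromosome 3, 49892526 to 50443614), stood at 6.58, 6.01 and 5.62 CPM against 5.41, 5.61 and 4.80 CPM. Although its groups did not overlap, it did not pass (log2 fold change 0.21, SE 0.099, adjusted p = 0.115). Slc43a1, a further neutral amino acid carrier, had between 53 and 115 counts per library and did not pass (adjusted p = 0.261). The marker sums given above for T cells and for mast cells, basophils and neutrophils moved with the lower transporters, and their part was not tested here either.

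Enzymes of serine and one-carbon metabolism were mostly higher, by 1.1- to 1.15-fold. Of 8 members 6 rose (17.1% of all tested genes did) and 0 fell (18.6% did). The median log2 fold change was 0.15, and the 6 that rose passed in each of the 17 alternatives. All 3 enzymes of serine synthesis were among them. Phgdh, the first step (chromosome 3, 98313170 to 98339990), stood at 171, 176 and 177 CPM against 158, 154 and 162 CPM (log2 fold change 0.14, SE 0.024, adjusted p = 3.34e-05).

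Psat1, the second step (chromosome 19, 15904678 to 15947337), stood at 378, 382 and 376 CPM against 351, 349 and 338 CPM (log2 fold change 0.13, SE 0.020, adjusted p = 7.07e-06). Psph, the last step (chromosome 5, 129765558 to 129787449), stood at 64.2, 66.3 and 65.4 CPM against 56.7, 58.1 and 57.1 CPM (log2 fold change 0.19, SE 0.032, adjusted p = 3.25e-05). For all 3 genes the libraries of the groups did not overlap. Exons of Cct6a on the other strand share 10.4% of the exon bases of Psph.

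The cytosolic and mitochondrial arms of the folate pathway each had a member that rose. Shmt1, the cytosolic serine hydroxymethyltransferase, rose from 26.4 ± 0.441 to 30.2 ± 0.299 CPM (log2 fold change 0.20, adjusted p = 0.000754). Its mitochondrial counterpart Shmt2 (chromosome 10, 127517123 to 127522444) stood at 284, 285 and 282 CPM against 289, 286 and 296 CPM. Its groups did not overlap, yet it did not pass (log2 fold change -0.03, SE 0.020, adjusted p = 0.21), and it passed as lower with library size as the only scaling (adjusted p = 0.0128). The ratio of Shmt1 to Shmt2 counts was 0.106, 0.107 and 0.106 against 0.0898, 0.0923 and 0.0905, higher in all 3 IL-10-producing libraries. Exons of Smcr8 on the other strand share 4.74% of the exon bases of Shmt1.

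Mthfd1, the cytosolic enzyme with 3 activities in the folate cycle, rose from 87.3 ± 5.06 to 97.1 ± 1.13 CPM (log2 fold change 0.15, adjusted p = 0.000554). Mthfd1l, the mitochondrial enzyme that releases formate, rose from 79.7 ± 1.39 to 91.3 ± 0.924 CPM (log2 fold change 0.20, adjusted p = 2.54e-06). Mthfd2, the mitochondrial dehydrogenase upstream of it and an ATF4 target (chromosome 6, 83305691 to 83325908), stood at 183, 179 and 175 CPM against 176, 175 and 178 CPM. These values overlapped and the gene did not pass (log2 fold change 0.02, SE 0.023, adjusted p = 0.50); the sign turned with library size as the only scaling (-0.01). The ratio of Mthfd1l to Mthfd2 counts was 0.50, 0.515 and 0.515 against 0.46, 0.456 and 0.439.

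**Figure D3:**
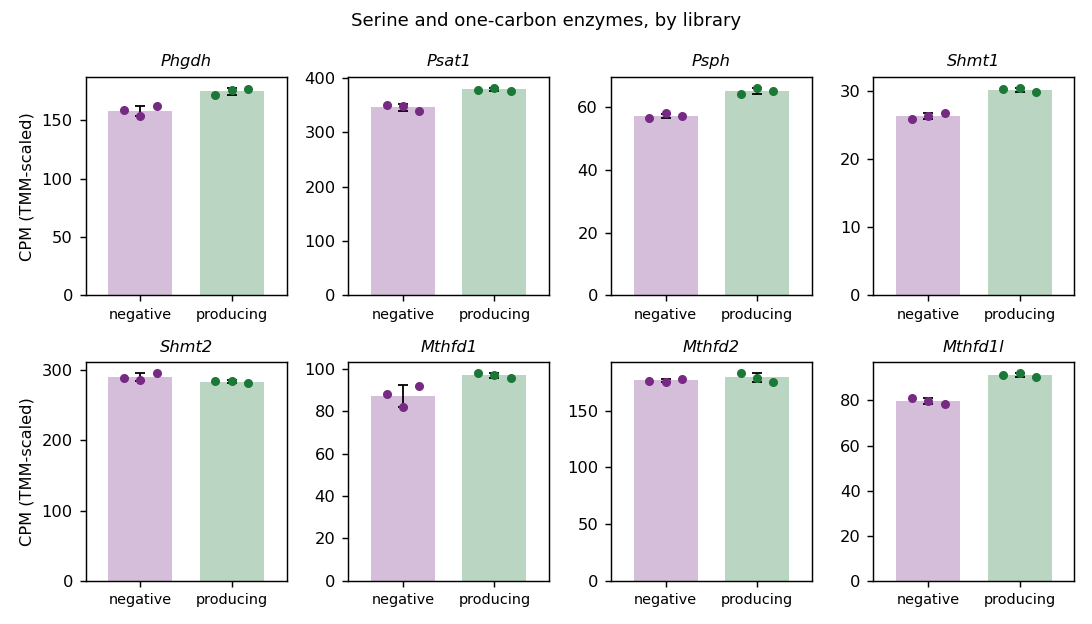
CPM of the 8 serine and one-carbon enzymes in IL-10-negative and IL-10-producing libraries; points are libraries, bars are means and error bars are SD (n = 3). Phgdh, Psat1, Psph, Shmt1, Mthfd1 and Mthfd1l are higher in every IL-10-producing library, and Shmt2 and Mthfd2 did not pass.

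Among the other amino acid enzymes, 4 of 9 rose (17.1% of all tested genes did), 1 fell (18.6% did) and 4 did not pass. Their median log2 fold change was 0.06. The largest rise of any member that passed was that of Gpt2, the mitochondrial alanine aminotransferase (chromosome 8, 85492576 to 85527560), at 65.6, 67.6 and 67.3 CPM against 47, 49.2 and 45 CPM. It was 1.42-fold higher and the groups were well apart (log2 fold change 0.51, SE 0.036, adjusted p = 2.06e-11). Bcat1, the cytosolic branched-chain aminotransferase (chromosome 6, 144993835 to 145076184), stood at 36.7, 37.8 and 35.4 CPM against 29.2, 28.0 and 28.0 CPM. It was 1.29-fold higher (log2 fold change 0.37, SE 0.043, adjusted p = 1.32e-07), whereas the mitochondrial Bcat2 did not pass at 45.6 ± 1.79 against 45.8 ± 1.73 CPM. The ratio of Bcat1 to Bcat2 counts was 0.835, 0.796 and 0.782 against 0.665, 0.60 and 0.596. Antisense genes share 15.9% of the exon bases of Bcat2 and 3.62% of those of Bcat1.

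Got2, the mitochondrial aspartate aminotransferase, rose from 160 ± 1.96 to 182 ± 2.31 CPM (log2 fold change 0.19, adjusted p = 2.4e-07), while the cytosolic Got1 did not pass at 70.6 ± 1.07 against 68.0 ± 1.73 CPM (adjusted p = 0.186). The ratio of Got2 to Got1 counts was 2.56, 2.53 and 2.64 against 2.33, 2.4 and 2.33, higher in all 3 IL-10-producing libraries. Exons of Gm45760 on the other strand share 9.0% of the exon bases of Got2. Glud1, which converts glutamate to a citric acid cycle intermediate, rose from 851 ± 8.01 to 888 ± 12 CPM (log2 fold change 0.06, adjusted p = 0.00626) and did not pass with library size as the only scaling (adjusted p = 0.161).

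The 2 members of proline synthesis had calls that depended on the setting. Aldh18a1, the first, fell from 181 ± 4.19 to 173 ± 5.58 CPM with overlapping libraries (log2 fold change -0.07, adjusted p = 0.0301). That call was lost with DESeq2 (adjusted p = 0.0524), with GC content and length corrected for (0.372), and without IL-10-producing replicate 1 (0.215) or 2 (0.0746) or IL-10-negative replicate 2 (0.177). Pycr1, the last, did not pass at 10.7 ± 0.603 against 9.54 ± 0.851 CPM (adjusted p = 0.0959), and passed as higher with GC content and length corrected for (0.0444) and without IL-10-negative replicate 1 (0.0386). Aldh18a1 was the 1 fall among the other amino acid enzymes, so the settings that lost its call left 0.

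**Figure D4:**
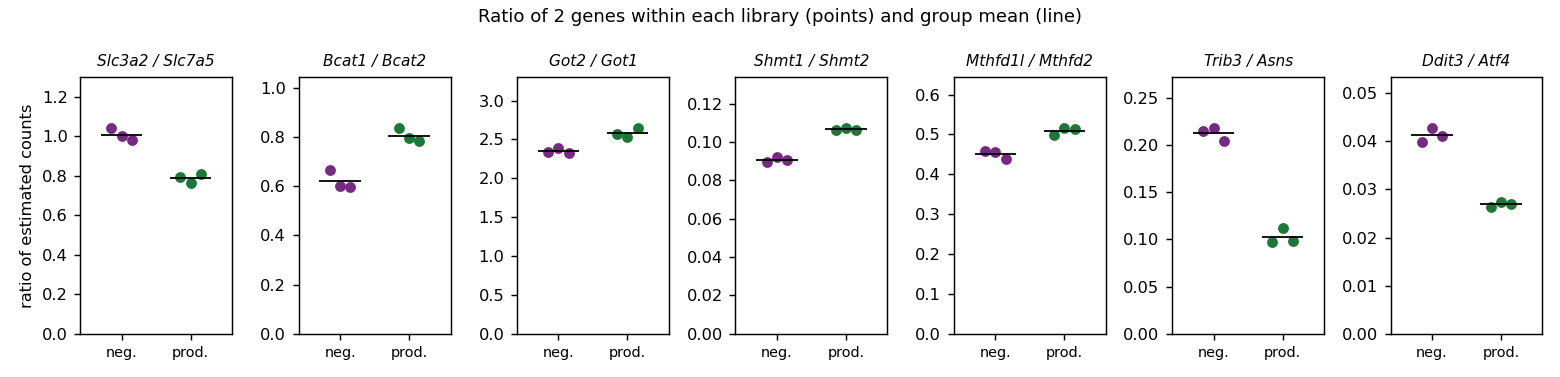
Ratio of the estimated counts of 2 genes within each library (points) with the group mean (line), for 7 pairs; counts are not divided by gene length, and each panel has its own axis from 0. The Trib3 to Asns ratio runs from 0.0977 to 0.112 in IL-10-producing and from 0.205 to 0.218 in IL-10-negative libraries.

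Levels between members were compared only as CPM per kilobase of the longest annotated transcript. On that scale Glud1 was the most abundant member, at 262 ± 3.53 in IL-10-producing and 251 ± 2.36 in IL-10-negative libraries, and Atf4 the next, at 228 ± 1.91 and 239 ± 2.61. Psat1 (145 and 132), Shmt2 (124 and 127), Slc3a2 (105 and 140), Slc7a5 (106 and 112) and Slc1a5 (107 and 107) followed, and within these 5 genes each overlapped its neighbour in the range over the 6 libraries, while Slc1a5 did not overlap Phgdh, the next below. The stress genes lay far lower, with Ddit3 at 12.7 and 20.5, Chac1 at 9.19 and 14.0, and Trib3 at 7.79 and 16.6. The least abundant members were Pycr1 (3.67 and 3.27), Slc7a11 (0.658 and 0.572) and Slc43a1 (0.38 and 0.302).

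Other genes of these pathways were taken from 8 lists, and 5 synthetase genes were in 2 of them. Over all tested genes 17.1% were higher and 18.6% lower, and of those at 5 CPM or more 24.2% and 22.8%. Counts near these shares set a list apart from other genes in no way. Among further factors and targets linked to ATF4, 11 of 19 tested genes fell and 1 rose (median log2 fold change -0.16). Atf5, a close relative of ATF4, fell from 51.3 ± 3.17 to 26.4 ± 0.601 CPM (adjusted p = 8.21e-15). Sqstm1, the autophagy receptor p62, fell from 377 ± 4.33 to 219 ± 4.52 CPM (adjusted p = 8.78e-20), and Stc2, a secreted glycoprotein induced by stress, from 74.7 ± 2.22 to 44.2 ± 2.46 CPM (adjusted p = 3.21e-14). The member that rose, named after its value was seen, was the stress-induced Nupr1, at 42.0 against 24.4 CPM.

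Upstream of ATF4, none of the 4 eIF2alpha kinases passed. Eif2ak1 stood at 68.8 ± 0.881 against 69.8 ± 1.41 CPM, Eif2ak2 at 46.9 ± 1.57 against 45 ± 1.51, Eif2ak3, the endoplasmic reticulum kinase PERK, at 52.8 ± 0.968 against 54.7 ± 2.03, and Eif2ak4, the amino acid sensor GCN2, at 25.8 ± 0.456 against 24.6 ± 1.18. In their list of 9 tested genes 2 rose (1 without IL-10-negative replicate 1) and 2 fell, beside 17.1% and 18.6% of all tested genes. Ppp1r15a, the stress-induced subunit that reverses eIF2alpha phosphorylation and is itself an ATF4 pathway target, fell from 46.0 ± 2.44 to 36.2 ± 0.529 CPM (adjusted p = 2.38e-07). Impact, an inhibitor of GCN2, fell from 32.0 ± 0.644 to 27.7 ± 1.34 CPM, and Eif2s1, which encodes eIF2alpha, rose from 141 ± 1.65 to 152 ± 2.96 CPM.

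The cytosolic aminoacyl-tRNA synthetases, several of which are ATF4 targets, differed little, with log2 fold changes from -0.12 to 0.12. Of 20 tested, 5 were higher and 3 lower, beside 17.1% and 18.6% of all tested genes. Sars fell from 212 ± 1.43 to 196 ± 4.26 CPM and Aars from 384 ± 6.16 to 361 ± 9.65 CPM, and Hars rose from 91.5 ± 1.18 to 99.3 ± 1.2 CPM. With library size as the only scaling 2 rose and 5 fell. Without IL-10-negative replicate 1 only 2 rose, and without IL-10-producing replicate 2 or IL-10-negative replicate 2 only 3. Amino acid transporters outside the members went both ways. Of 17 tested, 6 were lower and 3 higher (6 higher without IL-10-producing replicate 3), beside 18.6% and 17.1% of all tested genes. Slc7a8, another light chain for neutral amino acids that pairs with Slc3a2, fell from 577 ± 4.19 to 395 ± 7.60 CPM (log2 fold change -0.55, adjusted p = 1.85e-17). Slc6a9, a glycine carrier, fell from 42.9 ± 1.17 to 26.3 ± 0.464 CPM and Slc7a2, a carrier of cationic amino acids, from 4.33 ± 0.529 to 1.63 ± 0.139 CPM.

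Around the one-carbon members, 6 of 22 folate and methionine cycle genes rose and 4 fell, beside 17.1% and 18.6% of all tested genes. Ahcy, which clears S-adenosylhomocysteine, rose from 135 ± 4.87 to 162 ± 5.59 CPM, and Sfxn1, the mitochondrial serine carrier, rose from 79.5 ± 1.30 to 91.7 ± 2.65 CPM. Of 12 glutamine, glutamate and proline genes 3 rose and 1 fell (0 without IL-10-negative replicate 1), beside the same 17.1% and 18.6%. Cad, which spends glutamine on pyrimidine synthesis, stood at 384 ± 7.85 against 330.3 ± 2.24 CPM, and Ppat, its purine counterpart, at 62.6 ± 0.0855 against 53.8 ± 0.734 CPM. Glul, glutamine synthetase, was the other gene that rose, from 147 ± 2.15 to 157 ± 4.24 CPM.

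Among 10 genes of branched-chain amino acid breakdown 3 fell and 0 rose at an adjusted p under 0.05, beside 18.6% and 17.1% of all tested genes. Bckdha, a subunit of the complex that oxidises branched-chain keto acids, fell from 23.2 ± 1.55 to 18.1 ± 1.02 CPM, and Ppm1k, the phosphatase that activates this complex, fell from 18.9 ± 1.17 to 16.3 ± 0.307 CPM. Acadsb, a dehydrogenase further along the route, fell from 35.7 ± 0.862 to 30.4 ± 1.95 CPM. Of 27 genes of amino acid sensing upstream of mTORC1, 6 rose and 6 fell (3 without IL-10-producing replicate 1 or 3). The shares of all tested genes were 17.1% and 18.6%. Sesn3, a relative of Sesn2, fell from 127 ± 1.99 to 94.6 ± 2.31 CPM and Wdr59, of the GATOR complex, from 54.0 ± 1.94 to 41.3 ± 2.02 CPM. Gatsl3, which encodes the arginine sensor CASTOR1, rose from 76.5 ± 0.847 to 101 ± 1.42 CPM. The plot of shares by list sets these counts beside those of all tested genes.

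**Figure D5:**
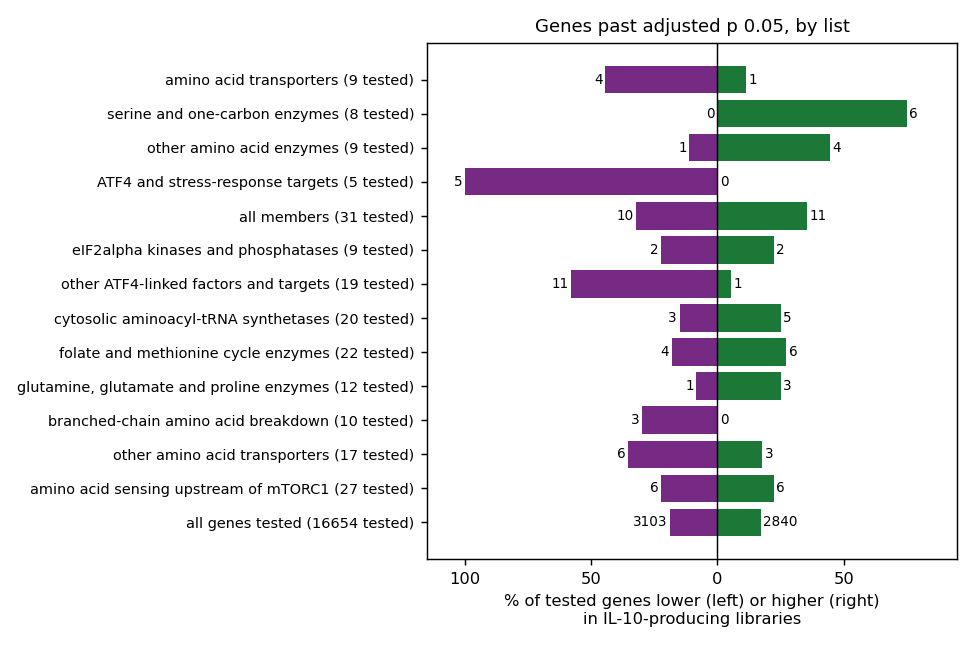
Percent of tested genes in each list that were lower (left) or higher (right) in IL-10-producing libraries at an adjusted p under 0.05, with the counts printed at the bars. All 5 genes of the ATF4 group and 11 of 19 further ATF4-linked genes were lower, against 18.6% of all tested genes.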

How the data were processed

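RNA of 6 libraries was made from 10 ng of input each, per the labels' protocols, and the submitters' processing notes name build mm10, the aligner STAR 2.5.3a, Partek and bcl2fastq 2.17.1.14. The authors deposited an estimated count for each gene and library without scaling, and 50.2% of these values were not whole. The deposited normalized signal, given for 13824 genes, equalled the count with 1 added, multiplied by 1 factor for the library (100% of values within 1%). Neither the annotation release nor the strand setting is given in the sources used here. GENCODE M21 held 19917 of the gene identifiers, all at the same position once 1 was subtracted from the listed stop.

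Counts were rounded and tested with edgeR 4.0.16 (R 4.3.3; TMM, group as the only term, filterByExpr with minimum count 10 and total 15); all 31 members passed this filter. The SE was taken as the log2 fold change over the root of F. The fit was tested on simulated data first. It recovered 22 of 50 genes changed 1.1-fold, 34 of 50 changed 1.2-fold and 46 of 50 changed 1.5-fold, with 8 false calls. Differences of about 1.1-fold can thus be missed. Only 50 genes of 16654 were changed at each size, while 35.7% of all tested genes passed in the data. These rates may therefore differ from those for the members. Replicates of 1 group varied from each other 2.39 to 2.96 times as much as Poisson sampling alone (median over genes), so none was a copy. Members and lists were chosen with earlier results of these data known. All members are named; values in every library are given for those past the threshold with a log2 fold change of at least 0.2 in size and for a fixed set of key genes, and up to 3 genes of each other list with the smallest p, and the eIF2alpha kinases, are named, except a gene that is not reported here. Of the symbols in those lists, 26 of 159 had no row, mostly newer synonyms. Alternatives used limma 3.58.1 and DESeq2 1.42.0 and are given in the closing section.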

Additional observations from a re-analysis of the deposited data

How the results depend on the processing

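Over the 17 alternatives, 8 to 12 members were lower and 10 to 12 higher; the 8 came from the GC and length correction, with or without the replicate block, and the 12 lower from library size only. Serine and one-carbon enzymes that rose numbered 6, and ATF4 genes that fell numbered 5, in each of them. The calls of Slc7a5, Aldh18a1, Glud1, Shmt2, Asns and Pycr1 changed as given with each gene, and no other member's call did. Signs turned only for members that did not pass: with library size only for Slc1a5 (-0.0249) and Mthfd2 (-0.00855), after the GC and length correction for Slc7a6 (0.0228, and 0.0225 with the replicate block), and on leaving out a library for Slc1a5 (-0.00113 to 0.0189), Slc7a6 (-0.0215 to 0.015) and Bcat2 (-0.0385 to 0.0208). The Eif2ak1 log2 fold change turned after the GC and length correction (0.0142, and 0.0151 with the replicate block). Libraries of the same replicate number shared no visible deviation from their group means (correlations -0.0211, -0.0177 and -0.0402). With 3 libraries a group, this cannot show whether they were paired. With the replicate block 11 members were higher and 10 lower, as without it. Among the other lists, counts moved by over 1.5 times for synthetases higher (2 to 8 against 5) and lower (5 against 3 with library size only), eIF2alpha genes higher (1 against 2), other ATF4-linked genes higher (2 against 1) and sensing genes lower (3 against 6), for other transporters higher (6 against 3), for glutamine genes lower (0 or 2 against 1), and for branched-chain genes higher (1 against 0). With 3 libraries a group, a member that did not pass is not shown to be equal between groups.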
